A study of Mus musculus with 6 samples.

Results

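The nuclear-encoded subunits of the mitochondrial respiratory chain were followed in mouse cells labelled as LSECs (liver sinusoidal endothelial cells, the fenestrated lining of the hepatic sinusoids). The cells were taken directly from liver and exposed to hydrostatic pressure. Macrophage markers were also abundant in them, as given with the cell type markers below. Levels are therefore those of the whole culture and not of LSECs alone. The members were all listed gene symbols that begin with Nduf, Uqcr, Atp5 or Cox followed by a digit from 4 to 8, the symbols Sdha to Sdhd, and Cycs and Cyc1. This rule used names only and found 94 of the 24421 listed genes. They were 84 subunits (36 of complex I, 4 of complex II, 9 of complex III, 19 of complex IV, 15 of the ATP synthase, and cytochrome c as 1 gene), 7 Ndufaf assembly factors, and 3 other genes (Cox7a2l, Atp5s and Atp5sl). The 7 Sdhaf and Uqcc genes, which do not begin that way, were added to give 14 assembly factors, kept apart from the subunits throughout.

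The pressure-exposed group (HP, 3 libraries) came from cells of wild genotype that were picked with CD146 beads, kept overnight on collagen I, deprived of serum for 6 h and then exposed for 8 h to an absolute pressure that alternated from 101 to 135 kPa with a frequency of 0.01 Hz. The control group (3 libraries) had the same genotype, isolation, plating and serum deprivation. How the controls were kept during those 8 h is not labelled, so handling or culture time cannot be told apart from pressure. All 6 libraries carry a single batch label. Whether the 3 libraries of each group stem from different cultures or different animals is not labelled, and the p-values therefore reflect no more than the spread among these libraries, which may be technical. The design asks how pressure loading changes transcript levels. Library totals were 12922959 to 17675569 counts in HP and 13986286 to 18655749 counts in control. Levels are CPM, counts divided by library size after scaling by TMM factors, and a log2 change is HP over control with its standard error from edgeR. In bulk RNA, fewer cells of a type and less RNA per cell cannot be told apart.

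The respiratory chain passes electrons from NADH (complex I) and succinate (complex II) through ubiquinone to complex III, then through cytochrome c to complex IV, where oxygen is reduced. Complexes I, III and IV pump protons across the inner membrane, and the ATP synthase (complex V) uses their return to make ATP. Complexes I, III, IV and V also hold subunits encoded in mitochondrial DNA, and assembly factors help to build each complex without remaining in it. The files list 0 symbols with the prefix of mitochondrially encoded genes, so only nuclear-encoded subunits are described.

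Of the 84 subunits, 77 had enough counts for testing. In HP, 13 of these rose and 20 fell at an edgeR adjusted p under 0.05, while 33.7% of all 12892 tested genes were called higher and 35.1% lower. In all, 42.9% of the tested subunits were called in either direction, against 68.8% of all tested genes. The median log2 change was -0.02 for the subunits and -0.02 for all tested genes. The subunits' changes were also small in size: the median absolute log2 change was 0.19, against 0.54 for all tested genes. At least 1.5-fold in either direction was reached by 9 of 77 subunits (11.7%), against 46.9% of all tested genes. These counts describe the members and were given no test of their own. All 3 HP levels lay above all 3 control levels for 16 subunits and below them for 22, and over all tested genes this held for 34.9% and 37.0%.

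The balance of calls moved with the scaling of the libraries. TMM factors were 0.91 to 0.95 in HP and 1.07 to 1.08 in control. With library totals alone, 2 subunits were called higher (24.3% of all genes) and 38 lower (45.7%), and with upper-quartile factors 4 (28.1%) and 26 (40.2%). Library totals shift the median of all tested genes to -0.23 and that of the subunits to -0.24, so relative to all genes the subunits' median was -0.01 under both scalings. Under all 4 scalings tried, 2 subunits were called higher (Cycs and Atp5a1) and 18 lower, against 24.3% and 34.1% of all genes. An offset for GC content and transcript length gave 25 higher (35.6% of all genes) and 20 lower (37.2%), and it turned the sign of the subunits' median, which was 0.07 with that offset, against -0.02 for all genes. Single libraries mattered too. Without HP 3, 14 subunits were called higher (36.4% of all genes in that fit) and 34 lower (37.8%). Without control 1 the counts were 6 higher (29.8%) and 19 lower (31.4%), and without control 3 they were 8 higher (30.2%) and 17 lower (31.8%).

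**Figure D1:**
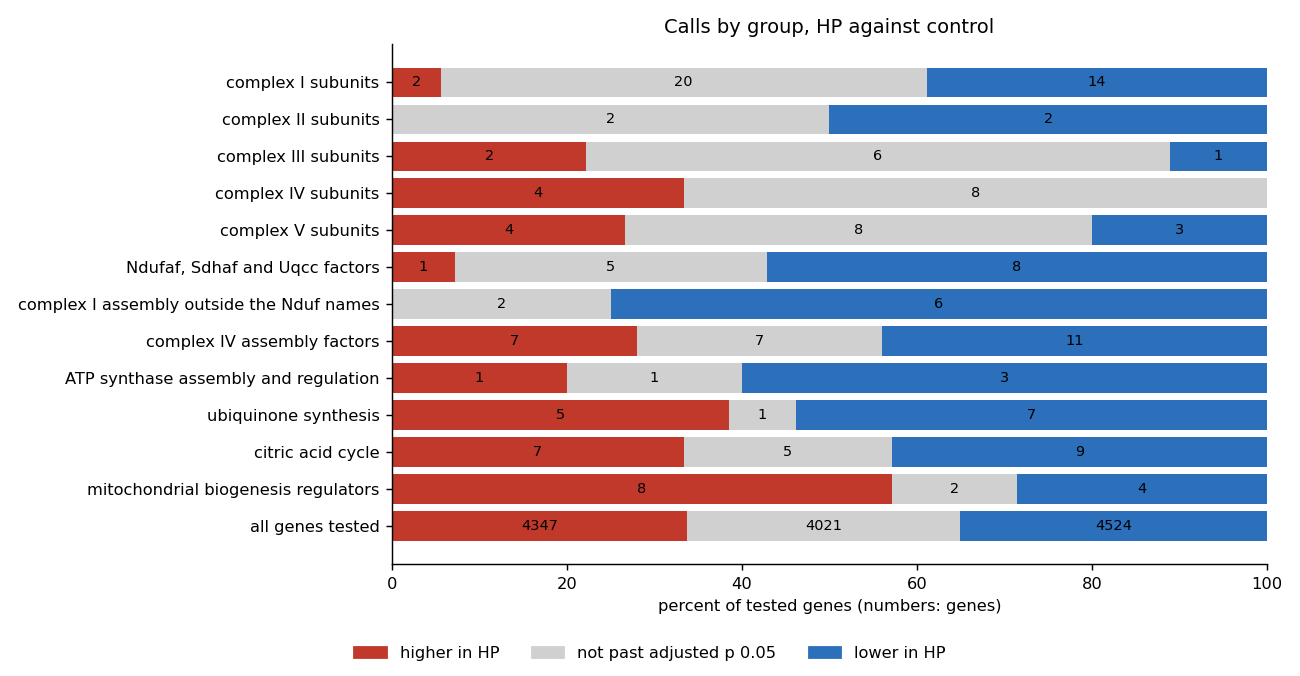
Share of tested genes called higher, not called, or called lower in HP against control (edgeR, adjusted p 0.05, TMM scaling), in percent of each group, with gene numbers written in the bars. Complex I has 2 higher and 14 lower of 36 subunits and complex IV 4 higher and 0 lower of 12, although complex IV has 0 higher and 3 lower with library totals alone and 8 higher and 0 lower with the GC and length offset.

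HP 3 stood apart from the other HP libraries for these genes. Its level was the highest of the 3 HP levels for 71 of the 77 subunits (92.2%), against 41.2% of all tested genes. The subunits' median position relative to the control mean, on the log2(CPM + 0.5) scale, was -0.12 in HP 1, -0.12 in HP 2 and 0.13 in HP 3. For all tested genes it was -0.02 in each HP library. As an unscaled share of all counts, the subunits together took 0.640% in HP 1, 0.656% in HP 2 and 0.762% in HP 3, and 0.752%, 0.800% and 0.761% in controls 1 to 3. By this unscaled share HP 3 lay within the control range, and HP 1 and HP 2 lay below it. After TMM scaling the summed level was 7047, 7045 and 8056 CPM in HP 1 to 3 and 7010, 7452 and 7034 CPM in controls 1 to 3. There HP 1 and HP 2 lay within the control range and HP 3 above it. HP 3 was also the shallowest library, and its part in the results was not tested beyond the fits without it.

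**Figure D2:**
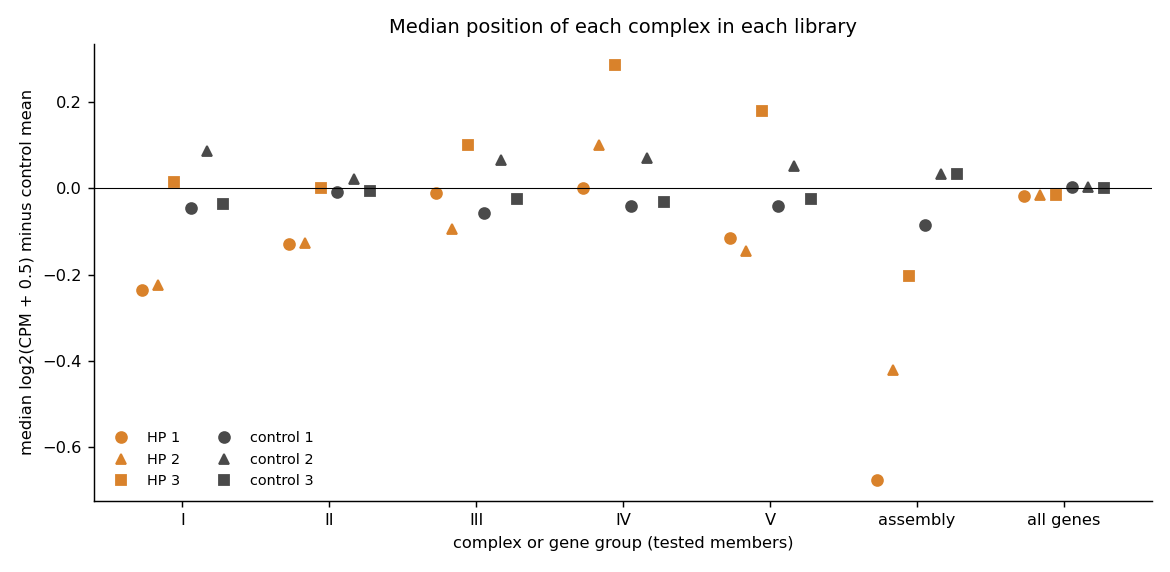
Median over the tested members of each complex of log2(CPM + 0.5) minus the mean of the 3 controls (y axis), by complex or gene group (x axis), with 1 point per library. HP 3 lies above HP 1 and HP 2 in complexes I to V and in the assembly factors, while all tested genes have medians near 0 in every library.

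Promoter sequences were available for 67 of the 84 subunits and 13 of the 14 assembly factors. They were searched on both strands, over the 250 bases before the annotated start, for letters of known regulators of respiratory chain genes. The NRF1 letters, GCGCA and GCGC with any base between them, were found for 12 of 67 subunits (17.9%) and 8.47% of all tested genes with a promoter. The other searches gave 16.4% against 14.2% for ETS (CCGGAAG), 7.46% against 2.6% for ERR (AAGGTCA) and 2.99% against 3.84% for YY1 (ATGGCGG). The NRF1 letters were present before 3 of 18 subunits called lower and 0 of 9 called higher, which says only that these letters are not in those 9 windows.

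The 4 promoters printed were chosen after the values were seen, because they belong to members with opposite changes. Each is given 5′ to 3′ on the gene's strand in GRCm38.p6, from RefSeq, with any NRF1 letters in capitals. RefSeq starts can differ from those of GENCODE, so a window may reach into an exon of the other annotation.
Ndufa6, lower in HP, chr15:82354292-82354541, minus strand: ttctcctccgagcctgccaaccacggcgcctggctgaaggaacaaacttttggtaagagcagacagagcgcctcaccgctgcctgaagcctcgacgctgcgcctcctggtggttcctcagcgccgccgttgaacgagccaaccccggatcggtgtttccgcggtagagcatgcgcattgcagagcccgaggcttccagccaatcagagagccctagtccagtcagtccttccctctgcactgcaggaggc
Atp5k, lower in HP, chr5:108434400-108434649, minus strand: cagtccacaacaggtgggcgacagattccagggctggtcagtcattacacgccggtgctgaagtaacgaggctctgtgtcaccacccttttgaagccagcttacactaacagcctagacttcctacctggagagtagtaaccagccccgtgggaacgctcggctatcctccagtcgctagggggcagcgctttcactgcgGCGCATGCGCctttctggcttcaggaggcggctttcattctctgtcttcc
Cycs, higher in HP, chr6:50566570-50566819, minus strand: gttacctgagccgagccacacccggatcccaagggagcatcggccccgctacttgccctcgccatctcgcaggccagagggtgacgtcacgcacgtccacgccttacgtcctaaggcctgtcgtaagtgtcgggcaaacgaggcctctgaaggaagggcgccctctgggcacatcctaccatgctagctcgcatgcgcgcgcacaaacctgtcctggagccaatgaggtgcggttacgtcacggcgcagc
Ndufaf4, higher in HP, chr4:24897833-24898082, plus strand: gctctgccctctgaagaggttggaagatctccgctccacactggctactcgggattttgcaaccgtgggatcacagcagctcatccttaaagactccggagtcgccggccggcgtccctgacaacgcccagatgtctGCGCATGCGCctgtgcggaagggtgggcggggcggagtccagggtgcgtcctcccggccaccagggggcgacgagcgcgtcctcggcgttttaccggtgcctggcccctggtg
The same letters, GCGCATGCGC, stand before Atp5k, whose transcript fell, and before Ndufaf4, whose transcript rose. Neither Ndufa6 nor Cycs held letters of any of the 4 motifs in these windows.

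Complex I, the NADH dehydrogenase, had the most members and the most calls: 2 of 36 subunits rose and 14 fell (median log2 change -0.12), against 33.7% and 35.1% of all tested genes. Library totals alone gave 0 higher and 21 lower, against 24.3% and 45.7% of all genes, and the GC and length offset gave 6 and 14, against 35.6% and 37.2%. Without HP 3 the counts were 2 and 21, against 36.4% and 37.8% of all genes. Without control 1 they were 0 and 13, against 29.8% and 31.4%. Without HP 1 they were 5 and 11, with a median of -0.08, against -0.01 for all genes in that fit. The shares of all genes called without HP 1 are not given here. The falls included subunits of both the peripheral arm, which takes electrons from NADH, and the membrane arm.

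Ndufa6, an accessory subunit of the LYR protein family that binds the acyl carrier protein, was the subunit with the largest fall. It measured 18.8, 18.8 and 19.4 CPM in HP and 50.0, 55.4 and 49.7 CPM in control. The 2 groups were far apart and the HP libraries nearly equal. The change was -1.44 ± 0.09 (adjusted p = 4.32e-07), and it kept its call under every scaling and without any single library. The gene spans chromosome 15 from 82350140 to 82354322 on the minus strand (GRCm38, GENCODE M21). Its partner Ndufab1, the mitochondrial acyl carrier protein, measured 41.0, 39.9 and 46.8 CPM in HP and 54.6, 58.7 and 48.5 CPM in control. The groups did not overlap, although HP 3 came close to control 3. The change of Ndufab1 was -0.34 ± 0.10 (adjusted p = 0.0102), and without control 2 its adjusted p was 0.0548.

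Ndufb3, an accessory subunit of the membrane arm, measured 12.2, 11.6 and 13.4 CPM in HP and 28.8, 30.6 and 30.3 CPM in control. The groups were far apart, with little spread in either. Its change was -1.28 ± 0.10 (adjusted p = 1.64e-06). Ndufs7, the core subunit that carries the last iron-sulfur cluster before ubiquinone, had levels of 14.6, 16.6 and 23.2 CPM in HP and 35.9, 45.4 and 32.2 CPM in control. HP 3 was the highest HP library and control 2 the highest control, but the groups did not overlap. The change was -1.07 ± 0.18 (adjusted p = 0.000293), and the fits without 1 library gave adjusted p-values up to 0.0028. Ndufa6, Ndufb3 and Ndufs7 were the only tested subunits called lower by at least 1 on the log2 scale, 3 of 77, against 13.7% of all tested genes. Only Cox6a2, described with complex IV, was called higher by as much, against 9.64% of all tested genes. Ndufb3 lies on chromosome 1 from 58586384 to 58595964 and Ndufs7 on chromosome 10 from 80249121 to 80256794, both on the plus strand.

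**Figure D3:**
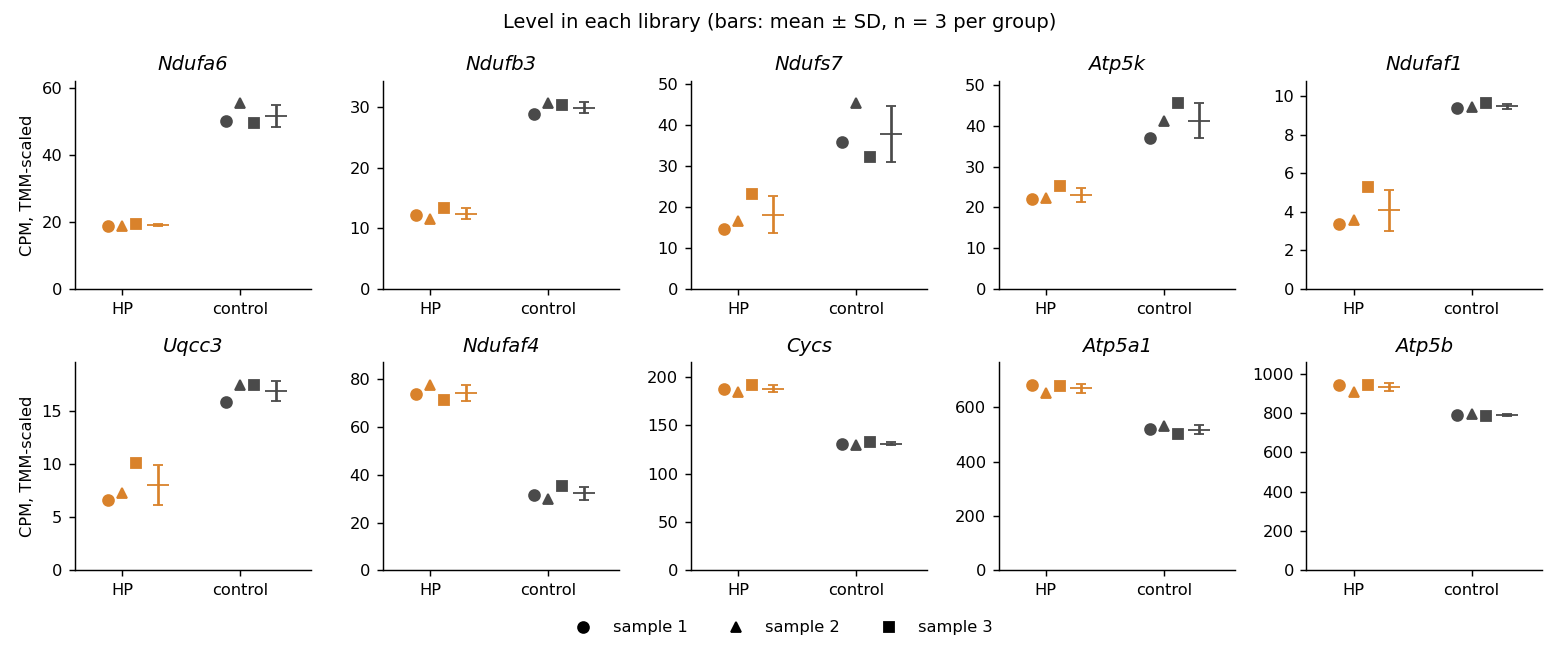
Level in CPM (TMM-scaled, y axis from 0) in each library for 10 members, HP left of control, with marker shapes for libraries 1 to 3 and bars for the mean ± SD (n = 3 per group). The 10 members were chosen with their values known, and the groups do not overlap in any panel. Over all tested genes, all 3 HP levels lay above all 3 control levels for 34.9% and below them for 37.0%. Ndufa6, Ndufb3, Ndufs7, Atp5k, Ndufaf1 and Uqcc3 are lower in HP, and Ndufaf4, Cycs, Atp5a1 and Atp5b higher, although Atp5b is not called with upper-quartile factors or library totals.

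Ndufv1, which binds NADH and the flavin, fell by 0.46 ± 0.10 (adjusted p = 0.00236), with 51.0, 50.6 and 62.1 CPM in HP and 72.7, 82.7 and 69.8 CPM in control. Its neighbour in the NADH-binding module, Ndufv2, fell by 0.46 ± 0.14 (adjusted p = 0.0115). Both of these calls held in every fit that left out a single library. Ndufs1, the large iron-sulfur subunit of the same module, went the other way in sign without passing the test (0.17 ± 0.08, adjusted p = 0.0859), with 83.9, 92.6 and 94.7 CPM in HP and 78.6, 84.0 and 79.2 CPM in control. HP 1 overlapped the controls, and without HP 1 the adjusted p of Ndufs1 was 0.0383. Ndufs8 had a log2 change of 0.32 ± 0.13, just outside the threshold (adjusted p = 0.053), and Ndufs3 one of -0.05 ± 0.13 (adjusted p = 0.736).

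Several other accessory subunits fell by over 0.6 on the log2 scale. Ndufa13, also known as GRIM-19, had 27.9, 24.5 and 31.9 CPM in HP and 48.5, 50.9 and 46.6 CPM in control (-0.80 ± 0.11, adjusted p = 6.84e-05). Ndufa3, a small membrane-arm subunit, had 19.1 to 24.2 CPM in HP and 31.2 to 35.3 CPM in control (-0.69 ± 0.11, adjusted p = 0.000279). For both genes the groups were clearly separate. Ndufb2 fell by 0.64 ± 0.16 (adjusted p = 0.00382). Exons of Ndufa13, Ndufa3 and Ndufb2 overlap those of Tssk6, Tfpt and Braf on the opposite strand, and since the strand setting of the counting is not given, reads of such pairs cannot be told apart. Smaller falls were those of Ndufb4, Ndufc1, Ndufab1, Ndufa7 and Ndufb10, with log2 changes between -0.48 and -0.31. Ndufb4 kept its call without any single library, whereas Ndufc1 lost it without HP 1, HP 2, control 2 or control 3. Ndufa7 lost it without HP 1, HP 2 or control 2. Ndufb10 kept it only without HP 3.

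The complex I subunits that rose were Ndufa1 and Ndufa12. Ndufa1, a membrane-arm accessory subunit, had 34.2, 34.0 and 40.9 CPM in HP and 25.7, 26.4 and 30.9 CPM in control (0.39 ± 0.11, adjusted p = 0.00874). The groups did not overlap, with control 3 the nearest to HP. Without control 1 the adjusted p was 0.052. Ndufa12, a peripheral-arm accessory subunit, had a log2 change of 0.24 ± 0.09 (adjusted p = 0.0321), and it was not called without HP 2, control 1 or control 3. Neither rise was called with upper-quartile factors or library totals.

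**Figure D4:**
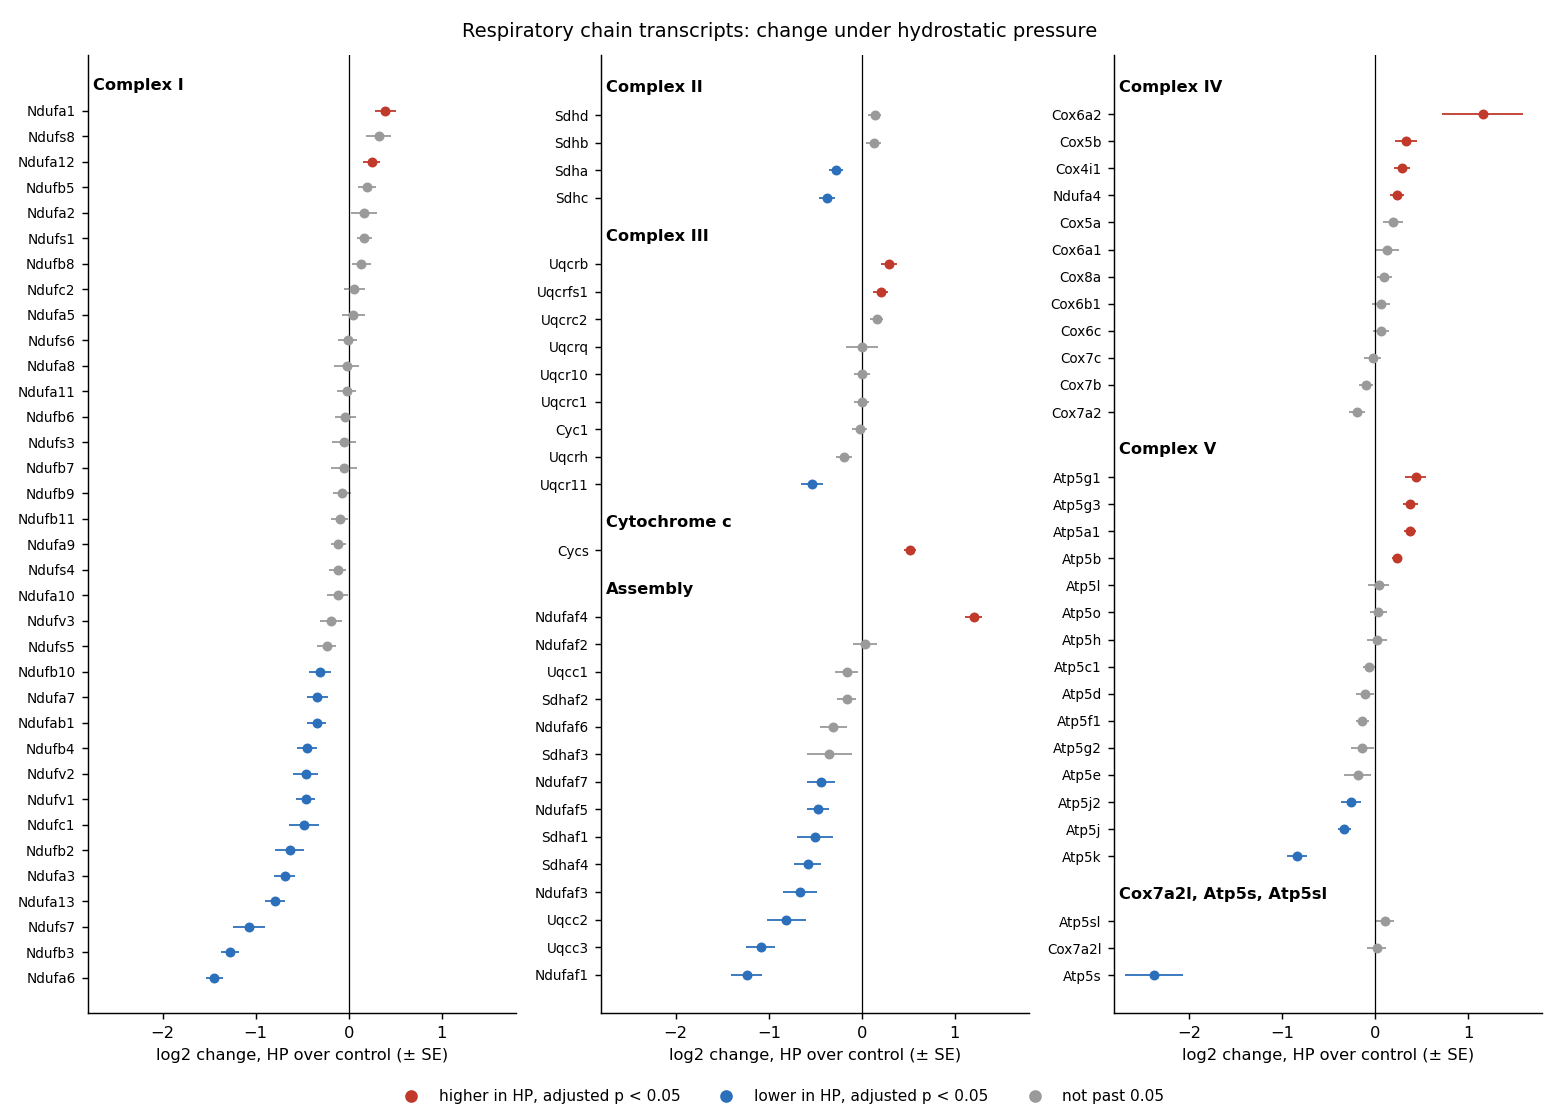
Log2 change, HP over control, with its standard error (edgeR, TMM scaling) for tested members, in panels by complex, with red and blue for calls at adjusted p under 0.05. The longest run of falls is in complex I, down to -1.44 for Ndufa6, and the assembly factors range from -1.24 (Ndufaf1) to 1.203 (Ndufaf4). The calls in complex IV and most rises elsewhere are not kept with library totals alone.

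All 4 subunits of complex II, succinate dehydrogenase, were tested. Under all 4 scalings 2 fell and 0 rose, against 34.1% and 24.3% of all tested genes. With a GC and length offset, 2 were called higher as well, against 35.6% of all genes. Sdha, the catalytic flavoprotein, had 169.4, 166.9 and 185.9 CPM in HP and 210.6, 213.2 and 209.5 CPM in control. Its change was -0.28 ± 0.07 (adjusted p = 0.00555). Sdhc, which anchors the enzyme in the membrane, had 73.9, 72.6 and 85.2 CPM in HP and 99.8, 100.1 and 100.2 CPM in control (-0.38 ± 0.08, adjusted p = 0.00214). In both genes the controls were tight and all HP libraries lay below them. Sdhd, the other membrane anchor, and Sdhb, the iron-sulfur subunit, did not pass the test, with log2 changes of 0.14 ± 0.07 (adjusted p = 0.111) and 0.13 ± 0.08 (adjusted p = 0.191). Within each library, the level of Sdha divided by the summed level of the other subunits was 0.618, 0.607 and 0.612 in HP and 0.736, 0.720 and 0.737 in control. This ratio needs no library scaling and did not overlap between the groups. The two-sided exact permutation p of the ratio was 0.1, the smallest that 3 against 3 libraries allow. Sdha was set against the others with earlier results of these data known, and Sdhc among the others fell too. The ratio is therefore no support independent of the call of Sdha.

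Complex III, the cytochrome bc1 complex, had 2 rises and 1 fall among 9 subunits, against 33.7% and 35.1% of all tested genes. Its median log2 change was -0.00. Library totals alone gave 0 higher and 4 lower (24.3% and 45.7% of all genes). The GC and length offset gave 3 and 1 (35.6% and 37.2%) with a median of 0.12. The fit without HP 3 gave 3 and 3 (36.4% and 37.8%), and the fit without control 1 gave 0 and 2 (29.8% and 31.4%). Uqcr11, a small membrane subunit, had 29.0, 25.6 and 34.7 CPM in HP and 41.0, 47.0 and 41.0 CPM in control (-0.54 ± 0.12, adjusted p = 0.00216). The groups did not overlap, and the fall was called under every scaling and without any single library. Uqcrb, a subunit close to the ubiquinone site, had 104.2, 115.6 and 122.0 CPM in HP and 88.7, 92.9 and 97.6 CPM in control (0.29 ± 0.08, adjusted p = 0.00997). The Rieske iron-sulfur protein Uqcrfs1 had 68.2, 67.7 and 66.0 CPM in HP and 57.4, 62.8 and 55.0 CPM in control (0.20 ± 0.08, adjusted p = 0.0418). Both genes were higher in every HP library than in every control. These rises rest on the scaling: with library totals alone the log2 changes were 0.08 for Uqcrb and -0.01 for Uqcrfs1. Uqcrb was not called without control 1, and Uqcrfs1 kept its call only without HP 3 or control 2. The catalytic cytochrome c1 gene Cyc1 (-0.02 ± 0.08) and the core subunit genes Uqcrc1 (-0.00 ± 0.08) and Uqcrc2 (0.16 ± 0.07) did not pass, with adjusted p-values of 0.798, 0.971 and 0.0783.

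Cycs encodes the somatic cytochrome c that carries electrons between complexes III and IV. Its level was 187.2, 184.3 and 191.6 CPM in HP and 130.1, 129.8 and 132.9 CPM in control. Each group was tight, and the gap between them was many times the spread within either. The rise was 0.52 ± 0.07 (adjusted p = 5.99e-05) and was called under every scaling and without any single library. It was 0.31 with library totals. The gene lies on chromosome 6 from 50562563 to 50566538 on the minus strand.

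Of the 19 complex IV genes, which encode nuclear subunits of cytochrome c oxidase, 12 were tested. Of these, 4 rose and 0 fell, against 33.7% and 35.1% of all tested genes, and the median log2 change was 0.11. None of the 4 rises was called with upper-quartile factors or library totals. With library totals 3 other subunits were called lower, against 45.7% of all genes, and the median was -0.10, against -0.23 for all genes. The GC and length offset moved the counts the other way, to 8 higher and 0 lower (35.6% and 37.2% of all genes), with a median of 0.22. Cox4i1, the ubiquitous form of subunit 4, had 265.5, 253.0 and 300.2 CPM in HP and 222.1, 231.2 and 215.5 CPM in control (0.29 ± 0.08, adjusted p = 0.00809). Cox5b had 120.0, 111.8 and 152.3 CPM in HP and 103.5, 107.4 and 92.7 CPM in control (0.34 ± 0.12, adjusted p = 0.0235). Ndufa4, named for complex I but a subunit of complex IV, had 120.9, 125.2 and 133.5 CPM in HP and 105.5, 110.4 and 106.6 CPM in control (0.24 ± 0.07, adjusted p = 0.0156). For all 3 genes the groups did not overlap and HP 3 was the highest library. Without control 1 or control 3, 1 of the 12 subunits was called higher (29.8% and 30.2% of all genes), and neither Cox5b nor Ndufa4 was. Cox6a1, the ubiquitous form of subunit 6a, had a log2 change of 0.13 ± 0.13 (adjusted p = 0.402).

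Complex IV includes genes for alternative forms that tissues such as heart, skeletal muscle, lung or testis use, and 7 of these had too few counts to test. Cox4i2, the form of subunit 4 known from lung, had 2, 2 and 0 counts in HP and 3, 1 and 0 counts in control. Counts for Cox7a1, the heart and muscle form, were 1, 2 and 0 in HP and 1, 1 and 2.5 in control. Cox6b2 had 0 counts in each HP library and 2, 1 and 1 in control. Cox7b2, Cox8b and Cox8c were listed at 0 in every library. Ndufa4l2, a paralog of Ndufa4 known as a hypoxia target, had 1, 0 and 4 counts in HP and 2, 0 and 0.5 in control. At these counts no difference between the groups was detectable. Cox6a2, the heart and muscle form of subunit 6a, was low but tested, with 24.5, 35 and 29 counts in HP and 18, 27 and 3 counts in control. Its log2 change of 1.16 ± 0.43 (adjusted p = 0.0348) lost its call without control 3 (0.76, adjusted p = 0.0709), without HP 2 (1.10, adjusted p = 0.0973) and without control 1 (1.18, adjusted p = 0.0847). Control 3 was the lowest library by far, and the exons of Cox6a2 overlap those of Itgad on the opposite strand.

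The ATP synthase had 4 rises and 3 falls among 15 subunits, against 33.7% and 35.1% of all tested genes, and a median log2 change of -0.06. The counts were 1 and 8 with library totals (24.3% and 45.7% of all genes) and 4 and 7 without HP 3 (36.4% and 37.8%). With the GC and length offset they were 5 and 3 (35.6% and 37.2%), and the median was 0.05. The rises were in the catalytic head and the rotor ring. Atp5a1 and Atp5b encode the alpha and beta subunits that form the catalytic hexamer, and they were the most abundant of the respiratory chain members in CPM. Atp5b had 941.1, 906.8 and 942.9 CPM in HP and 786.8, 795.4 and 785.6 CPM in control, a change of 0.24 ± 0.06 (adjusted p = 0.0042). Atp5a1 had 681.9, 650.6 and 676.6 CPM in HP and 519.0, 531.9 and 499.6 CPM in control, a change of 0.37 ± 0.06 (adjusted p = 0.000344). Both were higher in every HP library. Atp5a1 was called under all 4 scalings, and its exons overlap those of Haus1 on the opposite strand. Atp5b was not called with upper-quartile factors (0.12, adjusted p = 0.106) or library totals (0.02, adjusted p = 0.735). Per kilobase of transcript, Atp5b was at 485.5 CPM in HP and 412.0 CPM in control, above Cox4i1 (356.7 and 291.4) and Atp5a1 (271.0 and 209.1).

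The other 3 genes of the catalytic part and central stalk did not pass the test: Atp5c1 had a log2 change of -0.06 ± 0.07, Atp5d of -0.10 ± 0.10 and Atp5e of -0.18 ± 0.15. Alpha and beta transcripts together, divided within each library by the summed level of the other ATP synthase subunits, gave ratios of 1.204, 1.149 and 1.004 in HP and 0.919, 0.869 and 0.890 in control. The groups did not overlap, with HP 3 nearest to the controls. The two-sided exact permutation p was 0.1, the smallest possible with these libraries. This split was chosen with earlier results of these data known. Both genes above the line had been called higher, and all called falls of the complex lay below it, with the other called rises. The separation therefore follows in part from the choice and is no support independent of those calls.

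Atp5g1, Atp5g2 and Atp5g3 are separate genes that encode the same mature c subunit of the rotor ring and differ in the targeting peptide that is cut off on import. Atp5g1 had 95.7, 96.2 and 127.2 CPM in HP and 75.9, 80.6 and 78.6 CPM in control (0.44 ± 0.11, adjusted p = 0.00486). Atp5g3 had 176.1, 167.2 and 193.1 CPM in HP and 130.9, 146.2 and 134.5 CPM in control (0.38 ± 0.08, adjusted p = 0.00184). Both were higher in every HP library, and neither was called with library totals alone (0.23, adjusted p = 0.105, and 0.17, adjusted p = 0.0972). Atp5g2 had 93.3, 95.9 and 130.8 CPM in HP and 111.5, 125.8 and 114.3 CPM in control, where HP 3 lay above every control and HP 1 and HP 2 below. Its log2 change was -0.14 ± 0.12 (adjusted p = 0.338), and without HP 3 it was -0.31 (adjusted p = 0.000562).

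Shares within the 3 c-subunit genes do not depend on library scaling. Atp5g2 made up 25.6%, 26.7% and 29.0% of their counts in HP and 35.0%, 35.7% and 34.9% in control. Atp5g3 made up 48.2%, 46.5% and 42.8% in HP and 41.1%, 41.5% and 41.1% in control, and Atp5g1 took 26.2%, 26.8% and 28.2% in HP and 23.8%, 22.9% and 24.0% in control. For each of the 3 genes the groups did not overlap. The log2 ratio of Atp5g2 to Atp5g3 was -0.76 ± 0.18 in HP and -0.23 ± 0.01 in control (SD, n = 3 each), a difference of -0.53 with an exact permutation p of 0.1, the smallest possible. That of Atp5g1 to Atp5g3 was -0.76 ± 0.14 in HP and -0.81 ± 0.04 in control, with an exact permutation p of 0.9. Counts of Atp5g1 and Atp5g2 were fractional in some libraries, and how the authors' counting assigned such reads is not known, so the shares are uncertain to that extent.

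**Figure D5:**
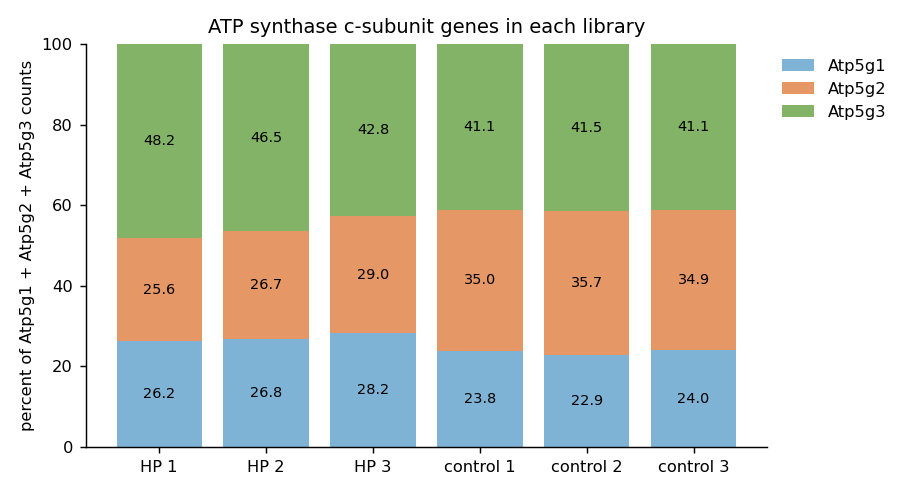
Percent of the summed counts of the 3 c-subunit genes that each gene takes (y axis), by library (x axis, HP left of control). Atp5g2 takes 25.6% to 29.0% in the HP libraries and 34.9% to 35.7% in the controls.

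The 3 falls in the ATP synthase were among the stalk and membrane subunits. Atp5k, the membrane subunit e that supports dimers of the enzyme, had 22.1, 22.2 and 25.1 CPM in HP and 37.1, 41.2 and 45.5 CPM in control (-0.84 ± 0.10, adjusted p = 4.61e-05). All HP libraries lay far below all controls, and the call held under every scaling and without any single library. The gene lies on chromosome 5 from 108433244 to 108434448 on the minus strand. Atp5j, a coupling factor of the peripheral stalk, had 84.1, 83.0 and 84.5 CPM in HP and 101.6, 106.7 and 108.2 CPM in control (-0.33 ± 0.07, adjusted p = 0.00188). The groups were tight and separate, but exons of Atp5j overlap those of Gabpa on the opposite strand, and with a GC and length offset the adjusted p was 0.197. Atp5j2, the membrane subunit f, passed narrowly (-0.26 ± 0.10, adjusted p = 0.0489) and kept its call only without HP 3.

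Among genes that share these names but are not subunits, Atp5s had the largest change. Atp5s, known as factor B, had 0.623, 0.729 and 1.801 CPM in HP and 4.35, 5.97 and 5.22 CPM in control. It was low in all 6 libraries, with HP 3 above the other HP libraries and no overlap between groups. The change was -2.37 ± 0.31 (adjusted p = 6.28e-05). Atp5sl, a related gene annotated as Dmac2 in GENCODE M21, did not pass (0.10 ± 0.09, adjusted p = 0.341). Neither did Cox7a2l, which links complexes III and IV into supercomplexes (0.02 ± 0.10, adjusted p = 0.874).

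All 14 assembly factors were tested. In HP 1 rose and 8 fell (median log2 change -0.46), and 64.3% were called in either direction, against 68.8% of all tested genes. The same 1 rise and 8 falls were called under all 4 scalings, against 24.3% higher and 34.1% lower over all tested genes. With library totals alone 11 were lower, against 45.7% of all genes, and the median relative to all genes stayed at -0.44. A change of at least 1.5-fold was seen in 5 of 14 (35.7%), against the 11.7% of subunits and 46.9% of all genes given above. Whether assembly factors differ from subunits as groups was not tested.

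Ndufaf4, a factor for an early step of complex I assembly, was the only assembly factor that rose. It had 73.8, 77.7 and 71.2 CPM in HP and 31.6, 29.9 and 35.4 CPM in control. All HP libraries lay far above all controls. The change was 1.203 ± 0.09 (adjusted p = 1.25e-06), called under every scaling and without any single library. Ndufaf3, which acts together with Ndufaf4, fell instead, with 5.67, 5.96 and 9.01 CPM in HP and 9.24, 11.5 and 11.6 CPM in control (-0.66 ± 0.18, adjusted p = 0.00745). HP 3 almost reached control 1, and exons of Ndufaf3 overlap those of Impdh2 on the opposite strand. Ndufaf4 lies on chromosome 4 from 24898083 to 24905001 on the plus strand.

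Ndufaf1, which acts on the membrane arm of complex I, had 3.37, 3.59 and 5.32 CPM in HP and 9.39, 9.44 and 9.65 CPM in control (-1.24 ± 0.17, adjusted p = 8.39e-05). The controls were almost equal, and HP 3 was the highest HP library without reaching them. Ndufaf5, which hydroxylates Ndufs7, had 6.42, 6.69 and 6.22 CPM in HP and 8.99, 8.59 and 9.32 CPM in control (-0.47 ± 0.12, adjusted p = 0.00478). Ndufaf7, a methyltransferase, had 7.66, 8.69 and 10.6 CPM in HP and 11.99, 13.65 and 10.57 CPM in control (-0.44 ± 0.15, adjusted p = 0.023). For Ndufaf5 the groups were separate, while for Ndufaf7 HP 3 overlapped control 3 and the call was lost without HP 1, HP 2, control 1 or control 2. Ndufaf2 (0.03 ± 0.12, adjusted p = 0.819) and Ndufaf6 (-0.30 ± 0.15, adjusted p = 0.0883) did not pass.

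The complex III factors Uqcc2 and Uqcc3, which act on the newly made cytochrome b, both fell. Uqcc3 had 6.67, 7.29 and 10.2 CPM in HP and 15.8, 17.5 and 17.4 CPM in control (-1.09 ± 0.15, adjusted p = 9.09e-05). Uqcc2 had 14.8, 17.0 and 29.0 CPM in HP and 31.9, 38.8 and 34.6 CPM in control (-0.81 ± 0.21, adjusted p = 0.005). HP 3 stood well above the other HP libraries for Uqcc2 but below every control. Their partner Uqcc1 had a log2 change of -0.16 ± 0.12 (adjusted p = 0.265). Of the complex II factors, Sdhaf4, which binds the flavin-loaded Sdha, fell by 0.58 ± 0.14 (adjusted p = 0.00412). Sdhaf1, which serves the iron-sulfur subunit, fell by 0.50 ± 0.20 (adjusted p = 0.0414), and that call was kept only without HP 3. The most abundant of them, the flavinylation factor Sdhaf2, had 26.3, 27.9 and 32.4 CPM in HP and 31.8, 32.6 and 32.4 CPM in control (-0.16 ± 0.10, adjusted p = 0.161).

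Assembly genes with other names were read from lists. Of 10 listed complex I factors outside the Nduf names, 8 were tested, of which 6 fell and 0 rose, against 35.1% lower and 33.7% higher over all tested genes. Their median log2 change was -0.80. Timmdc1, a membrane-arm assembly factor, had 3.43, 2.92 and 6.30 CPM in HP and 15.0, 18.6 and 16.9 CPM in control (-2.04 ± 0.22, adjusted p = 1.76e-05). Tmem126b, of the same assembly complex as Ndufaf1, had 4.17, 5.90 and 6.71 CPM in HP and 17.5, 18.7 and 15.3 CPM in control (-1.63 ± 0.17, adjusted p = 9.55e-06). In both genes every HP library lay far below every control. Of the 6 complex III factors, Uqcc1 to Uqcc3 included, 4 fell and 1 rose (median -0.90), against 35.1% and 33.7% of all tested genes.

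For complex IV, 7 of 25 assembly genes rose and 11 fell (median log2 change -0.16), against the 33.7% higher and 35.1% lower of all tested genes. Library totals changed this to 4 higher and 15 lower, against 24.3% and 45.7%. Surf1, a factor for the early core of the enzyme, had 5.86, 5.23 and 6.22 CPM in HP and 17.6, 19.0 and 20.8 CPM in control (-1.73 ± 0.12, adjusted p = 1e-06). Taco1, which promotes translation of a mitochondrially encoded subunit, fell by 1.47 ± 0.14 (adjusted p = 6.66e-06). Sco1, a copper chaperone, had 34.1, 36.9 and 38.6 CPM in HP and 17.1, 15.6 and 17.9 CPM in control (1.11 ± 0.10, adjusted p = 3.93e-06). Cox10, which makes the heme precursor of the enzyme, rose by 0.93 ± 0.09 (adjusted p = 7.56e-06). For Surf1 and Sco1 all 3 HP libraries stood clear of the controls, and all 4 of these calls held under every scaling. Of 5 tested genes for ATP synthase assembly and regulation, 3 fell and 1 rose, against 35.1% and 33.7% of all tested genes. Atpaf1, a chaperone for the beta subunit, fell by 0.85 ± 0.13 (adjusted p = 0.000233), and Atpaf2, the chaperone for the alpha subunit, rose by 0.34 ± 0.11 (adjusted p = 0.0155), although the rise was not called with upper-quartile factors or library totals, nor without HP 2, control 1 or control 2.

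Regulators of mitochondrial DNA and of nuclear respiratory genes were also listed. Of 14 tested, 8 rose and 4 fell, against 33.7% and 35.1% of all tested genes, and their median log2 change was 0.32. Library totals alone gave 4 rises and 4 falls, against 24.3% and 45.7% of all genes. Tfam, which packages and transcribes mitochondrial DNA, had 130.6, 135.3 and 150.4 CPM in HP and 35.8, 37.5 and 37.7 CPM in control (1.91 ± 0.08, adjusted p = 7.35e-08). Tfb2m, the initiation factor of mitochondrial transcription, had 95.6, 92.0 and 81.3 CPM in HP and 33.0, 34.6 and 35.4 CPM in control (1.39 ± 0.09, adjusted p = 4.85e-07). Both rose in every HP library, well clear of the controls. Esrra, a nuclear receptor for which the ERR letters above are named, fell by 0.98 ± 0.13 (adjusted p = 6.87e-05), with 13.1, 12.9 and 17.8 CPM in HP and 30.1, 28.2 and 27.3 CPM in control. Tfb1m, which methylates mitochondrial ribosomal RNA, was low in all libraries, with 0.312, 0.547 and 0.819 CPM in HP and 2.00, 2.88 and 2.51 CPM in control, and fell by 2.17 ± 0.33 (adjusted p = 0.000158). Nrf1, the factor whose letters were searched in the promoters, fell by 0.30 ± 0.09 (adjusted p = 0.0136), but it was not called without HP 2 (adjusted p = 0.0506) or control 3 (adjusted p = 0.0623). Factors for the ETS and YY1 letters rose: Gabpa by 0.41 ± 0.09 (adjusted p = 0.00192) and Yy1 by 0.33 ± 0.09 (adjusted p = 0.00792). Neither rise was called with library totals, and exons of Gabpa overlap those of Atp5j. Gabpb1 rose by 0.485 ± 0.09 (adjusted p = 0.000524) and was called under every scaling. Polrmt, also listed, fell by 0.61 ± 0.10 (adjusted p = 0.00025). The coactivator gene Ppargc1a was at most 0.249 CPM in any library and was not tested.

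Markers of cell types were measured beside these genes. Over all tested genes, 33.7% were called higher and 35.1% lower. Of 12 LSEC and endothelial markers 1 rose and 7 fell, and their summed level was 5739 to 6867 CPM in HP and 7716 to 8232 CPM in control. Of 12 Kupffer cell and macrophage markers 2 rose and 2 fell, with summed levels of 6606 to 7151 CPM in HP and 7072 to 7653 CPM in control. These sums were near those of the LSEC list. As unscaled shares of all counts the macrophage markers took 0.600% to 0.676% in HP and 0.765% to 0.821% in control, without overlap. With library totals 0 were called higher and 6 lower, against 24.3% and 45.7% of all genes. Without HP 3 the counts were 3 higher and 6 lower, against 36.4% and 37.8%. The 11 hepatocyte markers summed to 22.6 to 26.6 CPM in HP and 14.5 to 18.3 CPM in control, with 2 of the 5 tested called higher. One of these, Apoa1, lost its call without HP 1 or control 2. Stellate and mural cell markers summed to 163.0 to 181.0 CPM in HP and 146.2 to 156.7 CPM in control. As unscaled shares of all counts the groups overlapped, at 0.01541% to 0.01645% in HP and 0.0157% to 0.01695% in control. Of the 8 tested, 1 rose and 2 fell (median log2 change -0.11). Cholangiocyte markers summed to 9.22 to 12.1 CPM in HP and 5.22 to 5.28 CPM in control, and all 3 tested were called higher. Sox9 among them lost its call without HP 2. Lymphocyte markers summed to 4.18 to 5.11 CPM in HP and 6.01 to 7.74 CPM in control, and 2 of the 3 tested were called lower. Cd4 among them lost its call without control 1. Erythroid markers, with too few counts to test, summed to 0.328 to 0.623 CPM in HP and 0.04996 to 0.213 CPM in control. Dendritic cell and neutrophil markers summed to 2.702 to 3.801 CPM in HP and 19.1 to 22.4 CPM in control, nearly all of the control level from Clec9a. The 2 tested markers of this list went opposite ways: Clec9a was called lower (log2 change -3.77) and Xcr1 higher (1.99). S100a9 and the haemoglobin genes Hbb-bs, Hbb-bt and Hbb-b1 were listed at 0 in every library. The part of these shifts in the results for the respiratory chain was not tested.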

How the data were processed

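Polyadenylated RNA of 3 HP and 3 control libraries was measured. The authors deposited expected counts for each gene symbol, which are estimates and can be fractional. TopHat2 2.2.1, Cufflinks 2.2.1 and mm10 are named in the submitters' processing notes. What tool counted reads, with what strandedness and gene annotation, is not given in the sources used here. Therefore genes with near-identical copies, and the 28 of 101 members and assembly factors whose exons overlap another gene, are uncertain. Of these 101 genes, 37 had a fractional count in at least 1 library.

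Counts were rounded and filtered with filterByExpr (minimum count 10, minimum total count 15), which kept 12892 genes, and HP was set against control in edgeR 4.0.16 (R 4.3.3) by quasi-likelihood tests with TMM factors, Benjamini-Hochberg adjustment over all tested genes and a threshold of 0.05. Exact permutation tests used scipy 1.17.1. Alternatives were DESeq2 1.42.0, limma-voom (limma 3.58.1), other scalings, other low-count filters, a GC and length offset, a replicate block and leaving out each library.

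Libraries of a group correlated at 0.987 or more in log CPM, and no pair agreed within sampling noise. The members and lists were chosen with earlier results of these data known. Named in full were members changed by at least 1 on the log2 scale, the 2 largest rises and falls and the 2 most abundant members of each complex, alternative isoforms, and for each list up to 2 genes per direction with the smallest p. Other members were named after their values were seen, and some results that the rule selects are not reported here. Coordinates and transcript lengths come from GENCODE M21 (GRCm38).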

Additional observations from a re-analysis of the deposited data

How the results depend on the processing

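The count of subunits called higher was 13 (33.7% of all tested genes). It moved to 4 with upper-quartile factors (28.1%), 2 with library totals (24.3%) and 25 with the GC and length offset (35.6%). It was 22 with the replicate block and that offset together, and 6 to 16 when a single library was left out. The count called lower was 20 (35.1%), against 38 with library totals (45.7%) and 15 to 34 without a single library. The count of 34 was without HP 3, where 37.8% of all genes were called lower. The shares of all genes also moved with the setting, and those for the block with the offset and for the fits without HP 1, HP 2 or control 2 are not given here. The subunits' median log2 change was -0.024, and it was -0.237 with library totals, 0.073 with the GC and length offset, with or without the replicate block, and -0.117 to 0.022 without a single library. The 1 assembly factor called higher was counted in every alternative, and 6 to 11 were called lower without a single library. DESeq2, limma-voom, RLE factors and the other low-count filters left these counts within 1.5 times. The sample numbers did not pair the libraries: the correlations of deviations were 0.13, -0.23 and -0.13. With the replicate block, 10 subunits were called higher and 19 lower, and 8384 genes in all against 8871.

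Of the comparisons of a named member with an alternative, 493 kept direction and side of the threshold, 42 lost the call, 19 gained it, and 20 changed sign. Of those 20, 18 were called neither way in either fit. The called ones were Uqcrfs1 with library totals (-0.009) and Uqcrc1 with the GC and length offset (0.160). With library totals the others were Ndufs1 (-0.047), Sdhd (-0.077), Uqcrc2 (-0.056), Cox6a1 (-0.084), Cox6b1 (-0.149) and Cox8a (-0.115), and with upper-quartile factors Cox6b1 (-0.048) and Cox8a (-0.015). Uqcrc1, at -0.003, was 0.018 with RLE factors, 0.007 with DESeq2, 0.160 with the replicate block and offset, and -0.051 to 0.043 without a single library, positive without HP 1, HP 2 or control 2. Atp5g2 was at 0.050 with the offset and 0.048 with the block and offset. Without a single library Cox6a1 ranged from -0.029 to 0.225 and Cox6b1 from -0.043 to 0.142, both negative only without HP 3. The causes were not tested. Low counts limited the 7 alternative forms of complex IV subunits.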

Other observations

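Genes next to the respiratory chain were listed too. Of 13 tested genes of ubiquinone synthesis, the carrier between complexes I or II and complex III, 5 rose and 7 fell (median log2 change -0.45), against 33.7% higher and 35.1% lower over all tested genes, and the same numbers were called with library totals and with upper-quartile factors. Coq10b, a binding protein for ubiquinone, had 111.3, 110.4 and 93.3 CPM in HP and 45.6, 44.9 and 45.3 CPM in control (1.22 ± 0.09, adjusted p = 1.09e-06). Its paralog Coq10a had 6.48, 8.02 and 9.42 CPM in HP and 19.5, 18.6 and 18.3 CPM in control (-1.25 ± 0.14, adjusted p = 1.54e-05). The groups did not overlap for either paralog, and the called directions were opposite. Pdss1, which makes the ubiquinone side chain with Pdss2, rose by 1.08 ± 0.15 (adjusted p = 8.57e-05), and Adck4, a kinase-like protein of the pathway, fell by 1.39 ± 0.14 (adjusted p = 8.15e-06).

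Of 21 genes of the citric acid cycle and pyruvate dehydrogenase, 7 rose and 9 fell (median log2 change -0.13), against the 33.7% and 35.1% of all tested genes. With library totals alone 2 rose and 13 fell, against 24.3% and 45.7% of all genes. Dld, a subunit that the 2-oxoacid dehydrogenases share, had 191.2, 200.9 and 198.6 CPM in HP and 109.0, 106.8 and 112.5 CPM in control (0.85 ± 0.07, adjusted p = 2.51e-06). Dlst, of the 2-oxoglutarate dehydrogenase, rose by 0.58 ± 0.07 (adjusted p = 4.98e-05), while Ogdh of the same enzyme had 114.4, 105.2 and 88.9 CPM in HP and 197.1, 185.2 and 187.8 CPM in control (-0.88 ± 0.10, adjusted p = 1.56e-05). Each of these 3 genes kept its call under every scaling and without any single library. Pdk2, a kinase that inhibits pyruvate dehydrogenase, fell by 1.64 ± 0.14 (adjusted p = 3.88e-06), and Idh2, the mitochondrial NADP-dependent isocitrate dehydrogenase, fell by 1.17 ± 0.12 (adjusted p = 1.08e-05). Ogdh was named after its values were seen, as the partner of Dlst.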
